A study of Sus scrofa with 2 samples.

Results

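FOXO1, PDK4 and ANGPTL4 were followed across the cell types of pig endometrium, the inner lining of the uterus, in 2 single-cell libraries. The 3 genes were found by their symbols and are 3 of the 26881 rows of the deposited gene table, with the identifiers ENSSSCG00025033940, ENSSSCG00025068690 and ENSSSCG00025017424. The question was whether PDK4 and ANGPTL4 follow FOXO1 from cell type to cell type and from cell to cell. Both libraries are endometrium of Yorkshire sows aged 3 years that had been artificially inseminated. The design names 1 sow at day 7 of gestation, before the endometrium is receptive, and 1 sow at day 13, when it is receptive. The labels do not say which library is which day, so they are called library 2 and library 1, after their titles, and differences between them cannot be read as differences between days. Tissue was digested with enzymes, red cells were lysed, and droplet capture counted unique molecular identifiers (UMIs), each standing for 1 captured transcript. With 1 library per group, the sow, the day and the handling cannot be told apart, no replicate check exists and no test was made.

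FOXO1 is a forkhead transcription factor that insulin and growth factor signals, through AKT, keep out of the nucleus; when those signals are low it enters the nucleus and turns on genes of the fasting state. In human endometrial stroma it is a central factor of decidualization, the change that prepares the tissue for an embryo. PDK4, or pyruvate dehydrogenase kinase 4, is a mitochondrial kinase that closes the entry of pyruvate into the citric acid cycle, so that cells spare glucose and burn fat. ANGPTL4 is a secreted inhibitor of lipoprotein lipase, the enzyme that frees fatty acids from circulating lipoproteins. PDK4 and ANGPTL4 are induced by fasting, by the fatty acid sensors of the PPAR family and by glucocorticoids, and PDK4 is a well-known FOXO1 target.

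Library 2 held 15093 barcodes and 87514969 UMIs, with a median of 4335 UMIs per barcode, and library 1 held 10045 barcodes and 45388759 UMIs, with a median of 3431. After filters and removal of called doublets, 12673 cells of library 2 and 8930 cells of library 1 remained. They formed 29 clusters, of which 26 could be named by their markers, always as "like" a cell type; 24 of the 29 drew over 90% of their cells from 1 library. Unnamed cells made up 0.631% of library 2 and 20.8% of library 1. The libraries also differed in RNA content. Ribosomal protein genes took 5.82% of UMIs in library 2 and 14.5% in library 1, a list of immediate early and dissociation stress genes took 1.95% and 0.985% in that order, and genes with very long introns took 0.185% and 0.0223%. In library 2, marker genes of epithelium summed to 6752 CPM (UMIs scaled to the same total in every class) in the epithelial-like class, against 414 to 928 CPM in the classes that are not epithelial. In library 1 the same sum was 3743 CPM in the epithelial-like class, against 54.9 to 399 CPM elsewhere.

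All 3 genes had a higher CPM in library 2. Over all cells, FOXO1 had 23781 UMIs (374 CPM) in library 2 and 3461 UMIs (93.5 CPM) in library 1. PDK4 had 19382 UMIs (305 CPM) in library 2 and 1625 UMIs (43.9 CPM) in library 1. ANGPTL4 had 3240 UMIs (51.0 CPM) in library 2 and 776 UMIs (21.0 CPM) in library 1. Where these UMIs lay differed by gene. In library 2 the epithelial-like class held 61.1% of FOXO1 UMIs, 78.5% of PDK4 UMIs and 2.93% of ANGPTL4 UMIs, and the stromal fibroblast-like class held 52.6% of ANGPTL4 UMIs. In library 1, whose epithelial-like class was small, blood endothelial-like cells held 45.1% of FOXO1, 34.2% of PDK4 and 27.4% of ANGPTL4 UMIs. The makeup of the libraries enters these shares: epithelial-like cells numbered 4323 in library 2 and 229 in library 1.

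**Figure D1:**
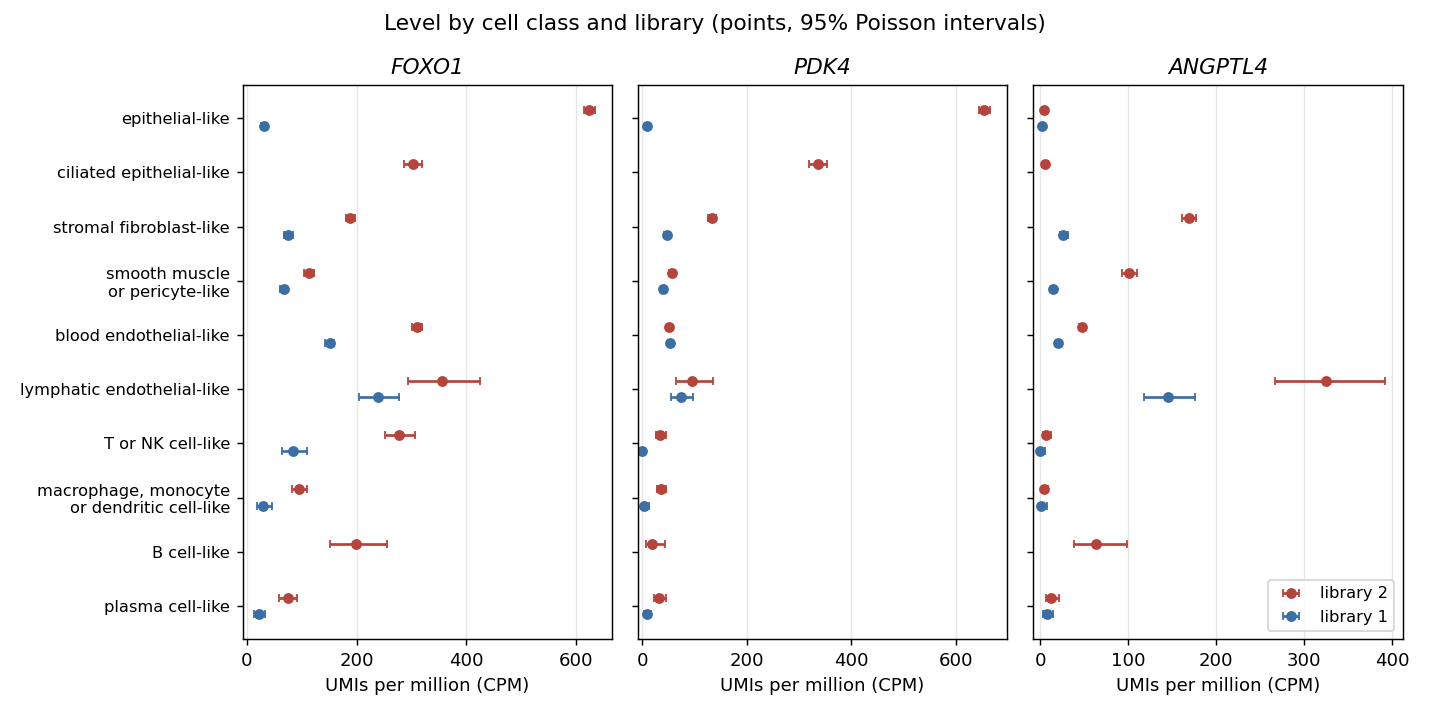
Level of FOXO1, PDK4 and ANGPTL4 (horizontal axis, CPM of the summed cells of a class) by cell class (rows) in library 2 (red) and library 1 (blue), with 95% Poisson intervals that cover counting error only. FOXO1 and PDK4 were highest in epithelial-like cells of library 2 (624 and 654 CPM), and ANGPTL4 in lymphatic endothelial-like cells of both libraries (325 and 145 CPM); ciliated and B cell-like cells are shown for library 2 alone.

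FOXO1, the transcription factor, was detected in every class of both libraries, and its order over classes was not the same in the libraries. In library 2 it was highest in epithelial-like cells, at 624 CPM (95% Poisson interval 614 to 635), and its interval did not overlap that of any other class. Lymphatic endothelial-like (355 CPM), blood endothelial-like (310 CPM), ciliated epithelial-like (302 CPM) and T or NK cell-like cells (278 CPM) followed, each overlapping its neighbour in the order. B cell-like cells (199 CPM) and stromal fibroblast-like cells (189 CPM) came next. The lowest 3 classes were smooth muscle or pericyte-like cells (113 CPM), macrophage, monocyte or dendritic cell-like cells (94.9 CPM) and plasma cell-like cells (74.3 CPM).

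In library 1 the endothelium led for FOXO1, with 239 CPM in lymphatic endothelial-like cells (204 to 278) and 151 CPM in blood endothelial-like cells (143 to 158), both apart from all other named classes. T or NK cell-like (84.6 CPM), stromal fibroblast-like (75.7 CPM) and smooth muscle or pericyte-like cells (67.0 CPM) overlapped each other in sequence. Epithelial-like cells, the top class of library 2, stood near the bottom of library 1 with 30.5 CPM (24.7 to 37.1), and their interval overlapped that of macrophage, monocyte or dendritic cell-like cells (29.5 CPM). Plasma cell-like cells were last, with 21.5 CPM.

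PDK4, the kinase, had a steeper order. In library 2 it was at 654 CPM in epithelial-like cells (644 to 664) and 335 CPM in ciliated epithelial-like cells (319 to 353), and these intervals overlapped with no others. Stromal fibroblast-like cells had 133 CPM, lymphatic endothelial-like cells 95.5 CPM, smooth muscle or pericyte-like cells 57.0 CPM and blood endothelial-like cells 51.8 CPM. The immune classes lay lowest, from 36.7 CPM in macrophage, monocyte or dendritic cell-like cells to 19.9 CPM in B cell-like cells. In library 1 the highest PDK4 level of a named class was 74.0 CPM, in lymphatic endothelial-like cells (55.2 to 97.0), and blood endothelial-like (53.5 CPM), stromal fibroblast-like (47.2 CPM) and smooth muscle or pericyte-like cells (40.0 CPM) overlapped it in sequence. An unnamed cluster of library 1, led by SULT1E1, ACTG2 and CNN1, had 81.7 CPM of PDK4 (70.1 to 94.7), an interval that overlapped that of the lymphatic class. Epithelial-like cells of library 1 had 9.01 CPM (6.04 to 12.9), from 29 UMIs, and T or NK cell-like cells had 0 UMIs in 475 cells, which allows a share of cells with a UMI of up to 0.774% by the exact interval.

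ANGPTL4, the secreted lipase inhibitor, had its highest levels in lymphatic endothelial-like and stromal fibroblast-like cells and was near its lowest in epithelial-like cells. In library 2 it was at 325 CPM in lymphatic endothelial-like cells (267 to 393), 169 CPM in stromal fibroblast-like cells (161 to 177) and 101 CPM in smooth muscle or pericyte-like cells (93.2 to 110). B cell-like cells (63.0 CPM) and blood endothelial-like cells (47.4 CPM) overlapped in their intervals. Epithelial-like cells, the class where FOXO1 and PDK4 were first, were last at 4.08 CPM (3.30 to 4.99). That interval overlapped those of macrophage, monocyte or dendritic cell-like (4.70 CPM), ciliated epithelial-like (5.93 CPM) and T or NK cell-like cells (6.63 CPM). In library 1 lymphatic endothelial-like cells again led with 145 CPM (118 to 176), followed by stromal fibroblast-like (26.4 CPM), blood endothelial-like (20.5 CPM) and smooth muscle or pericyte-like cells (14.9 CPM), while epithelial-like cells had 1.55 CPM from 5 UMIs. The lymphatic class was 75 cells in library 2 and 210 cells in library 1, and with called doublets kept its ANGPTL4 level in library 2 was 214 CPM. The B cell-like level rests on 19 UMIs in 14 of 126 cells. In that class stromal fibroblast markers summed to 964 CPM and lymphatic markers to 13.3 CPM, against 906 and 4.64 CPM in T or NK cell-like cells, where ANGPTL4 was at 6.63 CPM; the part of other cells' RNA in the B cell-like value was not tested. Markers of adipocytes, a cell type known for ANGPTL4, summed to between 2.84 and 20.4 CPM over the classes.

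The share of cells with at least 1 UMI is read beside a class that should hold little of the gene. FOXO1 was detected in 77.1% of epithelial-like cells of library 2 (75.8 to 78.3, Clopper-Pearson interval) and 29.3% of those of library 1 (23.5 to 35.6), at median depths of 3314 and 7173 UMIs. At that depth the unthinned share placed the epithelial-like cells of library 1 above stromal fibroblast-like cells (26.7%), the opposite of their order by CPM, and no order is read from it. PDK4 was detected in 59.1% of epithelial-like cells of library 2 and 8.73% of those of library 1, against 6.24% of T or NK cell-like cells of library 2, whose median depth was 1667 UMIs. ANGPTL4 was detected in 61.3% of lymphatic endothelial-like cells of library 2 and 32.4% of those of library 1, against 1.87% and 2.18% of epithelial-like cells. After each cell was reduced to 1000 UMIs, which left out 680 epithelial-like cells of library 2 and 29 of library 1, FOXO1 was expected in 47.8% of epithelial-like cells of library 2 and 3.72% of those of library 1. The thinned PDK4 shares were 37.1% in library 2 and 1.11% in library 1, and 4.00% in T or NK cell-like cells of library 2. Thinned ANGPTL4 shares in lymphatic endothelial-like cells were 28.3% in library 2 and 14.6% in library 1, with 2 and 14 cells left out. So the deeper epithelial-like cells of library 1 did not hold more cells with FOXO1 or PDK4 at either depth.

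Low FOXO1 and PDK4 values in library 2 have to be set against free RNA. Droplets capture RNA released by broken cells, and 3 abundant gland products give its size: uteroferrin (ACP5), its partner UABP-2 and the retinol carrier RBP4, chosen after their values were seen. In T or NK cell-like cells of library 2 these reached 12.5%, 11.1% and 13.6% of their epithelial-like level, and PDK4 reached 5.37%. In B cell-like cells the gland products were at 10.5% to 12.2% and PDK4 at 3.04%, in plasma cell-like cells at 7.76% to 8.04% and PDK4 at 5.06%, and in macrophage, monocyte or dendritic cell-like cells at 5.47% to 6.75% and PDK4 at 5.604%. PDK4 in these immune classes of library 2 was therefore at or below the share of gland transcripts and is not read as expression in these cells. Its source was not tested. In ciliated epithelial-like cells gland products were at 57.9% to 59.9%, PDK4 at 51.3% and FOXO1 at 48.4%; the part of other cells' RNA in the values of that class was not tested. Stromal fibroblast-like cells differed: gland products were at 5.44% to 6.05% of their epithelial-like level and PDK4 at 20.4%. Lymphatic endothelial-like cells had gland products at 4.34% to 6.62% and PDK4 at 14.6%. In blood endothelial-like cells these products were at 4.50% to 5.20% and PDK4 at 7.92%. In smooth muscle or pericyte-like cells the products were at 5.68% to 7.01% and PDK4 at 8.72%. FOXO1 lay above the gland products in each of these classes other than the ciliated one, at 56.9% of its epithelial-like level in lymphatic endothelial-like, 49.6% in blood endothelial-like, 44.5% in T or NK cell-like, 31.8% in B cell-like and 30.2% in stromal fibroblast-like cells. It was nearer to them in smooth muscle or pericyte-like (18.2%), macrophage, monocyte or dendritic cell-like (15.2%) and plasma cell-like cells (11.9%).

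The ratio of library 2 to library 1 was taken in the 8 classes with at least 50 cells in both, on the log2 scale with a counting interval. FOXO1 had a ratio above 0, with its interval, in 8 of 8 classes, and was at least 2-fold higher in 6 of them. PDK4 was at least 2-fold higher in 3 of the 6 classes where library 1 had more than 3 UMIs, and ANGPTL4 in 5 of 6. None of the 3 genes was 2-fold lower in any class with such a ratio. These counts depend on free RNA. With the gland share, the median of the 3 products, times the epithelial-like level taken off library 2 in the other classes, a setting chosen after seeing the data, FOXO1 was at least 2-fold higher in 2 of those 7 classes and above 0 in 7. PDK4 then had a ratio in 4 of them, was at least 2-fold higher in 1, the stromal fibroblast-like class, and was 2-fold lower in blood endothelial-like and smooth muscle or pericyte-like cells. The others had no ratio because the subtraction left PDK4 below 0. It was -46.8 CPM in T or NK cell-like, -3.14 CPM in macrophage, monocyte or dendritic cell-like and -17.8 CPM in plasma cell-like cells. The gland share thus took off too much PDK4 there, and whether it did so elsewhere was not tested. Nothing was taken off library 1, where UABP-2 was at 0 CPM in epithelial-like cells too and gives no measure of free RNA. The 3 classes for PDK4 include plasma cell-like cells, whose level is not read as expression, and the 5 for ANGPTL4 include epithelial-like cells, whose direction did not hold after thinning. These counts are read against all genes: the share of tested genes at least 2-fold higher in library 2 was 22.1% in epithelial-like, 27.4% in stromal fibroblast-like, 22.7% in blood endothelial-like and 22.1% in smooth muscle or pericyte-like cells. It was 20.3% in lymphatic endothelial-like, 22.3% in T or NK cell-like, 18.1% in macrophage, monocyte or dendritic cell-like and 26.4% in plasma cell-like cells. The share at least 2-fold lower was 24.9% in epithelial-like, 12.9% in stromal fibroblast-like, 11.5% in blood endothelial-like, 10.5% in smooth muscle or pericyte-like, 12.5% in lymphatic endothelial-like, 9.14% in T or NK cell-like, 14.7% in macrophage, monocyte or dendritic cell-like and 10% in plasma cell-like cells. No batch integration was applied. Different clusters made up most classes in each library, and the cause of this split was not tested. Nearly all epithelial-like cells of library 2 came from clusters 16, 17, 20, 22 and 27, and those of library 1 from cluster 13. Stromal fibroblast-like cells came from clusters 23 and 24 (library 2) or cluster 0 (library 1). For blood endothelium these were clusters 11 and 21 (library 2) or 2 and 3 (library 1), and for smooth muscle or pericytes clusters 18 and 26 (library 2) or 5 and 6 (library 1). Values within a class may therefore compare different subtypes as well as libraries.

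**Figure D2:**
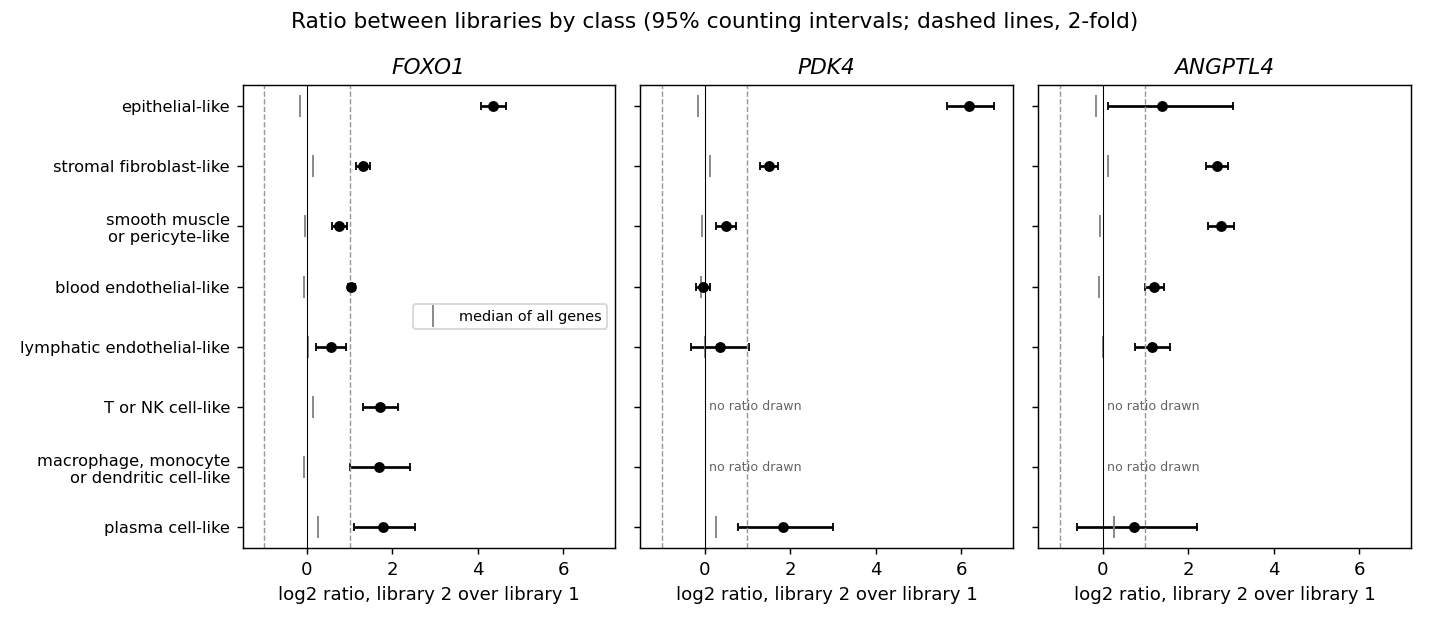
Log2 ratio of library 2 over library 1 (horizontal axis) for each gene (panels) and class (rows), with 95% counting intervals; grey ticks are the median of all genes tested in the class and dashed lines mark 2-fold. PDK4 and FOXO1 have their highest ratios in epithelial-like cells (6.18 and 4.36), ANGPTL4 in smooth muscle or pericyte-like cells (2.76) and stromal fibroblast-like cells (2.68); no ratio is drawn where library 1 had at most 3 UMIs.

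The epithelium held the largest ratios for FOXO1 and PDK4 among the classes. FOXO1 had 624 CPM in epithelial-like cells of library 2 and 30.5 CPM in those of library 1, from 14528 and 98 UMIs (log2 ratio 4.36, interval 4.07 to 4.66). PDK4 had 654 CPM in library 2, against 9.01 CPM in library 1, from 15218 and 29 UMIs (log2 ratio 6.18, interval 5.66 to 6.76). Among the 8782 genes tested in this class, 98.96% had a lower ratio than FOXO1 and 99.7% a lower one than PDK4, around a median of -0.16. ANGPTL4 had 95 UMIs in library 2, against 5 UMIs in library 1 (log2 ratio 1.39, interval 0.12 to 3.05). After thinning, library 1 was left below the floor of 3 and set to it, the ANGPTL4 value turned to -2.03, and no direction is read from it. In the same class ribosomal genes took 5.58% of UMIs in library 2 and 22.2% in library 1, and stress genes 2.19% and 0.703%; their part in the ratios was not tested.

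In stromal fibroblast-like cells all 3 genes were higher in library 2, and ANGPTL4 most. ANGPTL4 had 169 CPM in library 2, against 26.4 CPM in library 1 (log2 ratio 2.68, interval 2.42 to 2.94). PDK4 had 133 CPM in library 2, against 47.2 CPM in library 1 (log2 ratio 1.499, interval 1.30 to 1.71). FOXO1 had 189 CPM in library 2, against 75.7 CPM in library 1 (log2 ratio 1.32, interval 1.16 to 1.48). With the gland share taken off, the FOXO1 ratio was 1.03 and the PDK4 ratio 1.05, both close to 2-fold. The median over the 8648 genes tested in the class was 0.14, and 93.4% of them had a lower ratio than ANGPTL4. Smooth muscle or pericyte-like cells showed ANGPTL4 alone past 2-fold, with 101 CPM in library 2, against 14.9 CPM in library 1 (log2 ratio 2.76, interval 2.46 to 3.07). There FOXO1 had a log2 ratio of 0.76 (0.59 to 0.93) and PDK4 one of 0.51 (0.28 to 0.74). The PDK4 value was -0.25 when the libraries were clustered separately and 0.14 when the members were allowed among the clustering genes, so its direction in this class depends on how cells were assigned. With the gland share taken off it was -1.02, and the FOXO1 value was 0.21.

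Blood endothelial-like cells had a PDK4 ratio near 0 while FOXO1 and ANGPTL4 were higher in library 2. In blood endothelial-like cells FOXO1 had 310 CPM in library 2, against 151 CPM in library 1 (log2 ratio 1.04, interval 0.96 to 1.13), and ANGPTL4 had 47.4 CPM in library 2, against 20.5 CPM in library 1 (log2 ratio 1.21, interval 0.98 to 1.44). PDK4 had 51.8 CPM in library 2, against 53.5 CPM in library 1 (log2 ratio -0.05, interval -0.21 to 0.12). With called doublets kept the PDK4 value was 1.43 and the FOXO1 value 1.30. With the gland share taken off, PDK4 had 21.8 CPM left in library 2 and a ratio of -1.29, and FOXO1 one of 0.90. In lymphatic endothelial-like cells ANGPTL4 had a log2 ratio of 1.17 (0.76 to 1.57), FOXO1 one of 0.57 (0.22 to 0.92) and PDK4 one of 0.37 (-0.31 to 1.03), with intervals of FOXO1 and PDK4 that overlapped, the last from 32 UMIs in library 2 and 52 in library 1. With doublets kept the lymphatic PDK4 value was 1.18.

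Among the immune classes FOXO1 had log2 ratios of 1.72 (1.32 to 2.14) in T or NK cell-like, 1.68 (1.02 to 2.43) in macrophage, monocyte or dendritic cell-like and 1.79 (1.11 to 2.52) in plasma cell-like cells. With the gland share taken off these were 1.24, 0.95 and 0.25 in that order, and in plasma cell-like cells 25.6 of the 74.3 CPM of library 2 were left, against 21.5 CPM in library 1. PDK4 had 53 UMIs in T or NK cell-like cells of library 2 and 0 in those of library 1. With library 1 set to the floor of 3 UMIs the ratio was 8.03, with an interval from 6.31 and no upper end. After thinning to 1000 UMIs its log2 value was 2.33. PDK4 had 78 UMIs in macrophage, monocyte or dendritic cell-like cells of library 2 against 3 in those of library 1, a ratio of 8.27 (2.73 to 41.0). As the library 2 levels were below the share of gland RNA in T or NK cell-like cells and near it in the other class, these ratios are not read as expression in immune cells. Their cause was not tested. ANGPTL4 had 14 UMIs in plasma cell-like cells of library 2 and 8 in those of library 1, and 10 UMIs in T or NK cell-like cells of library 2 and 0 in those of library 1.

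Whether PDK4 and ANGPTL4 follow FOXO1 by cell type was described by correlating log2(CPM + 10) over the classes of 1 library. The points share a library and its depth and free RNA, and they are few, so the coefficients have no p-value. PDK4 and FOXO1 had a Pearson coefficient of 0.66 over 10 classes of library 2 (Spearman 0.56) and 0.69 over 8 classes of library 1 (Spearman 0.57). ANGPTL4 and FOXO1 had 0.01 in library 2 (Spearman -0.07) and 0.77 in library 1 (Spearman 0.52). Neither gene reached 0.8 with FOXO1 in a library, as 1.86% of 7204 genes did in library 2 and 3.53% of 6885 genes in library 1. For PDK4, 90.3% of genes in library 2 and 89.0% in library 1 had a lower coefficient; for ANGPTL4 it was 26.7% in library 2 and 94.7% in library 1.

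Single classes carried much of these coefficients. Without the epithelial-like class the PDK4 value of library 2 was 0.43 and the ANGPTL4 value 0.28, and without the lymphatic endothelial-like class the values of library 1 were 0.55 for PDK4 and 0.53 for ANGPTL4, and the ANGPTL4 value of library 2 was -0.21. PDK4 and ANGPTL4 were close to each other in library 1, at 0.87 (Spearman 0.98), and not in library 2, at -0.16 (Spearman -0.10). The difference between libraries in these coefficients was not tested.

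**Figure D3:**
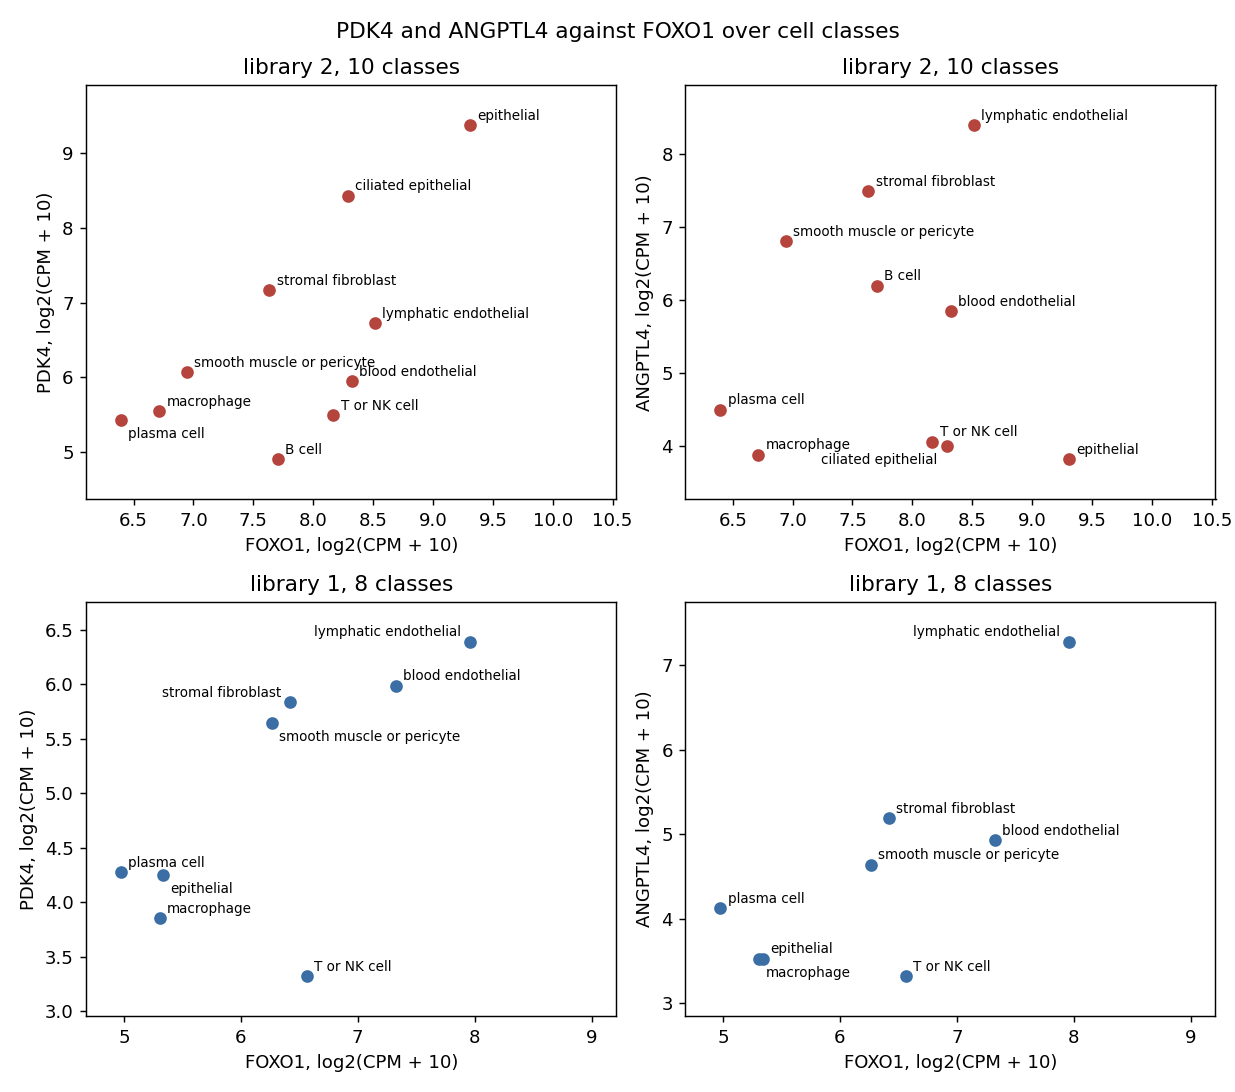
PDK4 (left) and ANGPTL4 (right) against FOXO1 in library 2 (top, 10 classes) and library 1 (bottom, 8 classes), all as log2(CPM + 10), with 1 point per "like" class named in short. In library 2 the epithelial-like class is highest for FOXO1 and PDK4. It is lowest for ANGPTL4, where its counting interval overlaps those of the next classes. In library 1 the lymphatic endothelial-like class is highest for all 3 genes.

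Some genes had class profiles nearer to FOXO1 than either metabolic gene. In library 2 the nearest were ADIPOR1, a receptor for the fat hormone adiponectin (0.95), ARHGEF3 (0.92), POLR2J (0.91), TBC1D20 (0.90) and VPS13D (0.90). Judged by the lower of the values in both libraries, they were CASTOR1, an arginine sensor upstream of mTORC1 (0.86), PIK3IP1, an inhibitor of PI3 kinase (0.85), COPRS (0.85), TBC1D20 (0.84) and ABHD17A (0.84). In library 1 alone NPAT, CCDC28B, ELK4, ADPGK and ZNF518A had 0.95 to 0.96. For PDK4 the nearest gene of library 2 was KLF15, a transcription factor of the fasting and glucocorticoid response, at 0.98, but at 0.30 in library 1. EPHB3, C1orf122, SLC25A27 and UBXN4 followed in library 2, each at 0.96. In library 1 the nearest to PDK4 were MICAL3 (0.98), PROS1, SLC9A3R2, TGFB2 and RFTN2. ANGPTL4 had FLRT2, a membrane protein of cell adhesion, near it in both libraries, at 0.93 in library 2 and 0.96 in library 1. CDKN1C, a cell cycle inhibitor, was at 0.88 in library 2 and 0.94 in library 1, and ARNT, the partner of the hypoxia factors, at 0.88 in library 2 and 0.96 in library 1.

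Within the epithelium of library 2, FOXO1 was near even over 3 of 4 clusters while PDK4 was not. Clusters 17, 20 and 22 had 575, 597 and 551 CPM of FOXO1, but 145, 892 and 524 CPM of PDK4. Cluster 17, led by the salivary lipocalin gene SAL1, thus had 25.2 PDK4 UMIs per 100 FOXO1 UMIs, cluster 20, led by the secretory genes SLPI, UABP-2 and ACP5, had 149, and cluster 22, led by CDO1 and S100A14, had 95.1. Cluster 16, led by SHANK2, had 1173 CPM of FOXO1 and 1322 CPM of PDK4, a ratio of 113 per 100. Its 1491 cells had a median of 1119 UMIs, against 4247, 5419.5 and 7318 in clusters 17, 20 and 22. Ribosomal protein genes took 2.67% of its UMIs, against 5.72%, 5.47% and 6.62% in those clusters. Genes with very long introns took 0.120%, against 0.106%, 0.0413% and 0.0641%. Its mean log2 fold of epithelial markers was 0.64, close to the minimum of 0.5 for a name. Its high CPM thus goes together with low depth and a differing RNA content, and their relation was not tested. In library 1 the single epithelial-like cluster, 13, led by AQP3, NMB and KRT8, had 29.6 PDK4 UMIs per 100 FOXO1 UMIs. Reduced to 1000 UMIs per cell, PDK4 was expected in 51.1% of cells of cluster 16, 10.5% of cluster 17, 47.1% of cluster 20 and 33.4% of cluster 22, and FOXO1 in 60.6%, 44.9%, 44.0% and 41.1% of cells in that order. That left out 566, 74, 26 and 11 cells. The clusters were drawn from these cells with the 3 members left out of the clustering genes, and the spread between them is a description.

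**Figure D4:**
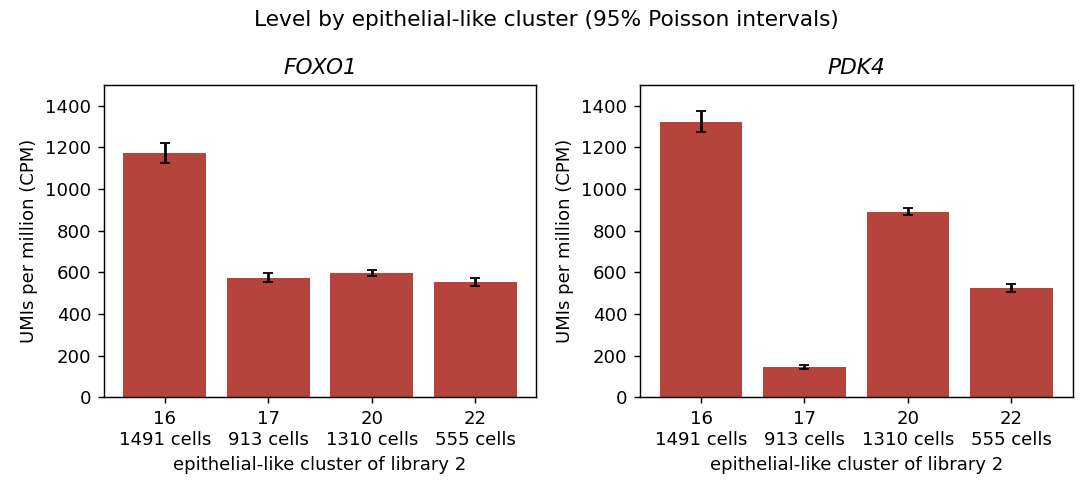
FOXO1 (left) and PDK4 (right) in CPM (bars from 0, with 95% Poisson intervals) in the 4 larger epithelial-like clusters of library 2. FOXO1 lies between 551 and 597 CPM in clusters 17, 20 and 22, whereas PDK4 is at 145 CPM in cluster 17 and 892 CPM in cluster 20; cluster 16, whose cells had few UMIs, is highest for both.

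ANGPTL4 also split the vessel and muscle classes. In library 2, smooth muscle or pericyte-like cluster 18, led by CCL19 and CCL2, had 133 CPM of ANGPTL4 and cluster 26, led by ITIH4, MGP and ACTA2, had 16.8 CPM. Blood endothelial-like cluster 11, with the venous gene ACKR1, had 61.8 CPM. Cluster 21, with the general endothelial gene CLDN5, the arterial gene SEMA3G, GPIHBP1 and FLT1 among its leading genes, had 22.4 CPM. The same order stood in library 1: cluster 5 had 20.1 CPM and cluster 6 had 2.79 CPM among smooth muscle or pericyte-like cells, and cluster 2, with ACKR1 among its leading genes, had 23.3 CPM against 3.42 CPM in cluster 3, where CLDN5 and SEMA3G led. In smooth muscle or pericyte-like cells FOXO1 and PDK4 took the same order as ANGPTL4. FOXO1 had 130 CPM in cluster 18 and 70.5 CPM in cluster 26 of library 2, and 82.6 CPM in cluster 5 and 30.7 CPM in cluster 6 of library 1. PDK4 had 67.2 CPM in cluster 18 and 30.4 CPM in cluster 26, and 52.3 CPM in cluster 5 and 11.6 CPM in cluster 6. PDK4 did not take that order in the endothelium, with 48.7 CPM in cluster 11 and 57.2 CPM in cluster 21 of library 2, and 51.1 CPM in cluster 2 and 68.4 CPM in cluster 3 of library 1. FOXO1 was close over the endothelial clusters of library 2, at 316 CPM in cluster 11 and 299.8 CPM in cluster 21, and was 156 CPM in cluster 2 and 117 CPM in cluster 3 of library 1. The stromal clusters of library 2 were alike for ANGPTL4, at 162 CPM in cluster 23 and 177 CPM in cluster 24. An unnamed cluster of library 1 with 1182 cells, led by CRABP1 and nearest to stroma by its markers, had 55.7 CPM of FOXO1, 44.7 CPM of PDK4 and 27.9 CPM of ANGPTL4. Another unnamed cluster of library 1, with 584 cells and led by SULT1E1, ACTG2 and CNN1, had 139 CPM of FOXO1 (124 to 156). It had 81.7 CPM of PDK4 and 22.2 CPM of ANGPTL4.

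From cell to cell, PDK4 did not separate cells with FOXO1 from cells without it by much. Cells were reduced to 1000 UMIs and values are expected ones over all such reductions. Of epithelial-like cells of library 2, 38.8% of the 1740 with a FOXO1 UMI also had a PDK4 UMI (36.5 to 41.1), against 35.5% of the 1903 without one (33.4 to 37.7). The mean was 0.861 PDK4 UMIs in cells with FOXO1 and 0.695 in cells without (log2 ratio 0.31, interval 0.20 to 0.42). Over the 6578 genes tested the median was -0.02, 92.2% had a lower value than PDK4, and 0.0608% were at least 2-fold higher, which neither PDK4 nor ANGPTL4 was. ANGPTL4, found in 0.361% of cells with and 0.370% of cells without FOXO1, had a log2 ratio of -0.05 (-1.85 to 1.72).

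The PDK4 value shrank within clusters. It was 0.13 (-0.03 to 0.30) in cluster 16, -0.27 (-0.86 to 0.30) in cluster 17, 0.10 (-0.07 to 0.28) in cluster 20 and -0.01 (-0.36 to 0.35) in cluster 22, so that every interval held 0. No gene was called 2-fold higher in clusters 17, 20 and 22 (0%), and 0.475% were in cluster 16. Without cluster 16 the class as a whole had 0.066 (-0.08 to 0.22), and unthinned it had -0.04 (-0.12 to 0.05). Graded by FOXO1, 35.5% of epithelial-like cells with 0, 37.8% with 1, 38.3% with 2 and 43.8% with 3 or more FOXO1 UMIs also had PDK4. In cluster 20 the same steps gave 46.1%, 48.3%, 48.2% and 49.96%, the last over 41 cells with an interval of 32.9 to 64.9.

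Elsewhere in library 2 the intervals held 0, with 1 exception. In stromal fibroblast-like cells PDK4 was found in 11.9% of cells with and 11.4% of cells without FOXO1 (log2 ratio 0.09, interval -0.38 to 0.54), and ANGPTL4 in 13.4% and 13.6% (log2 ratio -0.005, interval -0.43 to 0.40). In blood endothelial-like cells the log2 ratio was 0.20 (-0.37 to 0.75) for PDK4 and -0.19 (-0.88 to 0.46) for ANGPTL4. Smooth muscle or pericyte-like cells had 0.52 (-0.55 to 1.46) for PDK4 and 0.20 (-0.62 to 0.93) for ANGPTL4. Genes at least 2-fold higher in cells with FOXO1 made up 0% in the stromal and blood endothelial classes and 0.339% in the smooth muscle or pericyte-like class. The upper ends of these intervals reach from 0.40 to 1.46 on the log2 scale, so a higher level in cells with FOXO1 of up to those sizes lay inside them. The exception was the ciliated epithelial-like class, where PDK4 was found in 24.1% of cells with FOXO1 (16.4 to 33.3) and 16.2% of cells without (13.0 to 19.9). These share intervals overlapped. The log2 ratio of mean UMIs was 0.66 (0.06 to 1.24), an interval that counts UMIs and does not cover their spread between cells. In the same cells the gland products UABP-2, ACP5 and RBP4 had log2 ratios of 0.85, 0.83 and 0.86, and 0.078% of genes were at least 2-fold higher. In epithelial-like cells of library 2 these products had -0.17, -0.18 and -0.22 in that order, with intervals below 0. In stromal fibroblast-like cells of library 2 they had 0.10, 0.15 and 0.10, with intervals that held 0. The part of free RNA in the per-cell values was not tested. In library 1, blood endothelial-like cells had log2 ratios of 0.02 for PDK4 (-0.78 to 0.73) and 0.02 for ANGPTL4 (-1.33 to 1.16), over 355 cells with and 2112 without FOXO1, where 0.0161% of genes were at least 2-fold higher. Smooth muscle or pericyte-like cells of library 1 had 0.66 (-0.51 to 1.66) for PDK4 and 1.06 (-0.88 to 2.56) for ANGPTL4. There 3.06% of genes were at least 2-fold higher. Stromal fibroblast-like cells of library 1 had -0.11 (-2.21 to 1.43) for PDK4 and 0.96 (-0.85 to 2.40) for ANGPTL4, where that share was 0.583%. These intervals held 0, and the ANGPTL4 values rest on 4.11 and 4.61 expected UMIs in cells with FOXO1.

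**Figure D5:**
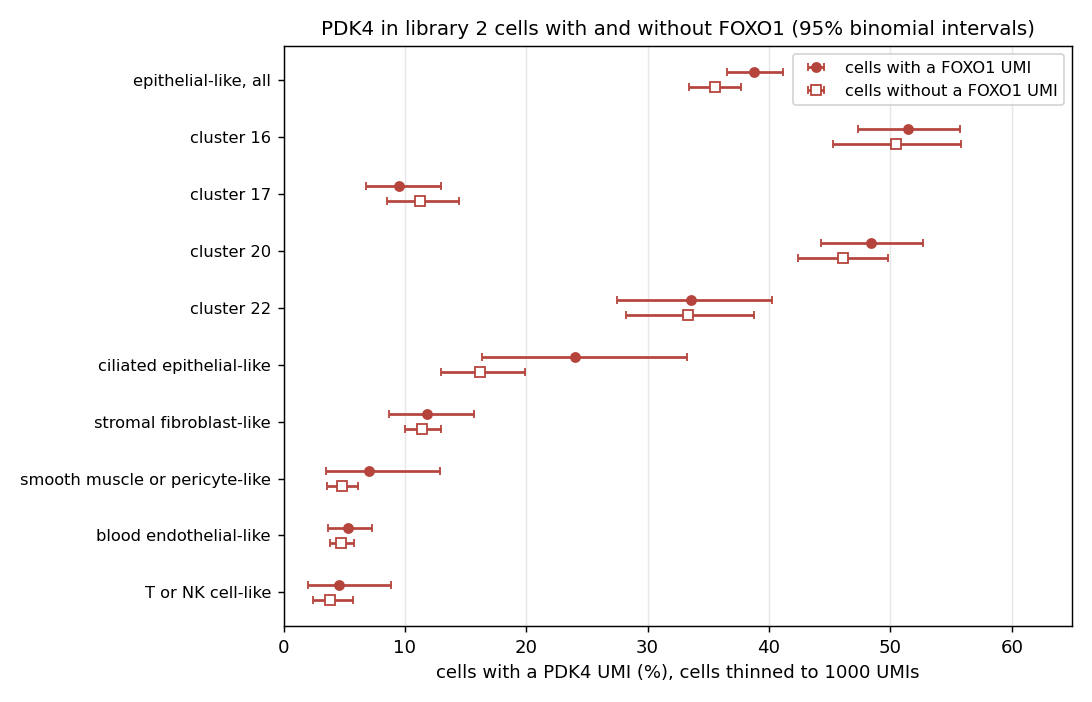
Share of library 2 cells with a PDK4 UMI (horizontal axis, percent, cells reduced to 1000 UMIs) among cells with (filled circles) and without (open squares) a FOXO1 UMI, by class and epithelial-like cluster, with 95% binomial intervals. The shares differ far more between clusters, from 10.5% in cluster 17 to 51.1% in cluster 16 over all cells, than between cells with and without FOXO1 inside one.

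Listed genes credited to FOXO factors, PDK4 and ANGPTL4 among them, were mostly higher in the epithelium of library 2, as were several unrelated lists. Of 35 listed FOXO target genes, 30 had a symbol, and all 30 passed the filter of 10 UMIs in epithelial-like cells: 21 were at least 2-fold higher in library 2 and 2 lower, with a median log2 ratio of 1.62, against 22.1% of all genes higher, 24.9% lower and a median of -0.16. PDK4 and ANGPTL4 belong to this list and are both counted among the 21, although no direction is read from the ANGPTL4 ratio. The insulin receptor gene INSR had 158 CPM in library 2, against 14.3 CPM in library 1 (log2 ratio 3.47), and RICTOR, a subunit of the kinase complex that activates AKT, had 113 CPM in library 2, against 16.5 CPM in library 1 (log2 ratio 2.77). The 2 lower genes were TXNIP, an inhibitor of thioredoxin, with 46.8 CPM in library 2, against 158 CPM in library 1, and PRDX3, a mitochondrial peroxidase, with 103 CPM in library 2, against 317 CPM in library 1. In the same class 19 of 25 stress genes and 9 of 12 genes with very long introns were at least 2-fold higher, with medians of 1.76 and 1.82, and 61 of 72 ribosomal genes were 2-fold lower, with a median of -1.90. ATF3, a stress-induced factor, had 4984 CPM in library 2, against 225 CPM in library 1. Their part in the FOXO target count was not tested.

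In stromal fibroblast-like cells 15 of 27 tested FOXO targets were at least 2-fold higher in library 2 and 0 lower, with a median of 1.18, beside 13 of 25 stress genes and 11 of 12 genes with very long introns. The 15 include PDK4 and ANGPTL4. Of all genes in that class, 27.4% were 2-fold higher and 12.9% lower. Blood endothelial-like cells had 9 of 27 FOXO targets higher and 2 lower, with a median of 0.29, where 22.7% of all genes were higher and 11.5% lower. The 9 include ANGPTL4. Of a list of FOXO factors and AKT pathway genes, 10 of 25 were higher and 4 lower in epithelial-like cells, with FOXO1 itself among the 10. IRS2, INSR, RICTOR and SGK3 stand on this list and on that of FOXO targets, so the counts of these lists are not separate. Of all genes in that class, 22.1% were higher and 24.9% lower. The 10 also included IGF1R, a growth factor receptor, with 479 CPM in library 2, against 17.4 CPM in library 1 (log2 ratio 4.78).

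In the pyruvate pathway, 4 of 15 tested genes, PDK4 itself included, were at least 2-fold higher in epithelial-like cells of library 2. Another 4 were lower, and the median was -0.71. Both shares were near those of all genes in that class (22.1% higher, 24.9% lower, median -0.16), against which the other epithelial lists that follow are also read. Both lactate dehydrogenase genes were lower: LDHB had 754 CPM in library 2, against 4088 CPM in library 1 (log2 ratio -2.44), and LDHA had 22.8 CPM in library 2, against 72.7 CPM in library 1 (log2 ratio -1.68). PDK2, a sister kinase, had 14.9 CPM in library 2, against 6.53 CPM in library 1, and PDK3 had 13.0 CPM in library 2, against 23.6 CPM in library 1. Of the glucocorticoid and progesterone response list, 9 of 14 genes were higher and 1 lower in epithelial-like cells, with a median of 1.53. ERRFI1, an inhibitor of the EGF receptor, had 251 CPM in library 2, against 4.04 CPM in library 1, KLF15 had 84.4 CPM in library 2, against 16.2 CPM in library 1, and the steroid-responsive cochaperone FKBP5 had 278 CPM in library 2, against 102 CPM in library 1. PGR, the progesterone receptor, had 35.1 CPM in library 2, against 69.6 CPM in library 1. Of the PPAR factors and partners, 3 of 4 tested genes were higher, PPARA with 49.1 CPM in library 2, against 5.91 CPM in library 1. From the hypoxia list 7 of 15 were higher and 4 lower, among them PFKFB3, an activator of glycolysis, with 100.2 CPM in library 2, against 5.28 CPM in library 1. Decidual partners of FOXO1 had 2 of 10 higher and 3 lower.

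LPL, the lipase that ANGPTL4 inhibits, was highest in stromal fibroblast-like cells, with 36.6 CPM in library 2, against 119 CPM in library 1 (log2 ratio -1.71). In these cells and in smooth muscle or pericyte-like cells, where LPL had 10.3 CPM in library 2, against 38.0 CPM in library 1, the ratio was opposite in sign to that of ANGPTL4. GPIHBP1, which anchors the lipase to capillary walls, was found in blood endothelial-like cells with 93.4 CPM in library 2, against 43.5 CPM in library 1 (log2 ratio 1.10). Of the lipase and fatty acid list, 5 of 24 genes were higher and 4 lower in stromal fibroblast-like cells, with a median of -0.32, where 27.4% of all genes were higher and 12.9% lower with a median of 0.14, and 4 higher and 4 lower of 24 in epithelial-like cells. ANGPTL4 is counted among the higher genes in both classes. ACAA2, a thiolase of fatty acid oxidation, had 10.2 CPM in epithelial-like cells of library 2 and 52.2 CPM in those of library 1. PLIN2, a lipid droplet protein and PPAR target, had 94.2 CPM in library 2, against 94.8 CPM in library 1 in epithelial-like cells. Of the glucocorticoid and progesterone response list, 6 of 14 genes were at least 2-fold higher and 0 lower in stromal fibroblast-like cells. FKBP5 and PGR had 412 and 364 CPM there in library 2, against 136 and 124 CPM in library 1, whereas TSC22D3 had 133 CPM in library 2, against 214 CPM in library 1, and KLF15 had 22.1 CPM in library 2, against 34.5 CPM in library 1.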

How the data were processed

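Endometrium from 2 libraries was measured by droplet single-cell RNA sequencing. The authors deposited raw UMI counts per gene and barcode, whole numbers in every entry, made with Cell Ranger 6.1.0 per the file headers; version 2.1.1 stands in the submitters' processing notes. Information on the genome build, aligner settings and treatment of introns was not given in the sources used here. Symbols came from the deposited gene table, where 10753 of 26881 rows had one; the identifiers matched neither reference table, so no coordinates or sequences were used, and the planned promoter search was not run. Groups came from the sample titles.

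Barcodes under 500 UMIs or 200 genes were dropped, and doublets called with Scrublet in scanpy 1.11.5 were removed, 2419 barcodes (16.0%) in library 2 and 1110 (11.1%) in library 1. The libraries shared 48 barcodes. Clustering used 2000 variable genes without the 3 members, 30 components, 15 neighbours and Leiden resolution 1.0 (igraph 0.11.9, seed 1), with no batch integration. Clusters were named from markers, 139 of 227 entries having a symbol, by mean log2 fold (20 CPM pseudocount), requiring 3 or more detected markers, a mean of 0.5 or more and a lead of 0.25 over the next list.

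Class sums of UMIs are expressed as CPM, with exact 95% Poisson intervals; shares have Clopper-Pearson intervals and ratios exact conditional binomial ones, with counts under 3 set to 3. All intervals cover counting error only, and 1 library per group allows no test. Called means at least 2-fold, over symbol genes with at least 10 UMIs in the class. In simulated counts 95.5% of intervals held the true ratio in the epithelial-like comparison (5175 genes) and 95.2% in the stromal one (6424 genes). These counts were Poisson draws, the counting model that the intervals assume, with no spread between cells or libraries. The simulation thus checks the calculation only and cannot show how well the intervals cover the spread in real cells. Per-cell values are expected values over all thinnings of a cell to 1000 UMIs, leaving out 893 cells of library 2 and 525 of library 1; this was adopted after 2 random thinnings had given different values. Correlations used classes of at least 50 cells and genes with at least 20 CPM in a class. Named genes were the members, fixed companions, the 5 genes nearest to each member among those with 50 CPM in a class, and the 3 largest ratios of each list among genes with 50 CPM. Of 248 list entries 182 had a symbol. Gland transcripts were added after their values were seen. TMM factors came from edgeR 4.0.16 in R 4.3.3. The members, lists and markers were chosen with earlier results of these data known.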

Additional observations from a re-analysis of the deposited data

How the results depend on the processing

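No paired analysis was possible because each group is 1 library and the labels give no replicate numbers. Of 1051 alternative values over 123 results, 936 stayed close to the reported value, 114 moved, and 1 value past 2-fold turned its direction. That 1 was the epithelial ANGPTL4 ratio (-2.03 after thinning). Close meant inside the reported interval for levels and ratios, within 0.1 for coefficients, and within a set fold for list counts. Of 228 ratio values, 215 kept their sign. In epithelial-like cells FOXO1 and PDK4 of library 2 were 636 and 667 CPM with doublets kept, 603 and 602 at resolution 2.0, 808 and 821 with cells weighted equally and 574 and 593 without cluster 16. The epithelial log2 ratio was 4.66 (TMM) and 3.93 (equal weights) for FOXO1 and 6.76 for PDK4 with libraries clustered separately. TMM scaling shifts all genes by 0.31 in epithelial-like, 0.12 in blood endothelial-like, 0.20 in macrophage, monocyte or dendritic cell-like, -0.11 in lymphatic endothelial-like and -0.22 in plasma cell-like cells. The stromal FOXO1 ratio was 1.51 at resolution 0.5 and 1.52 with the CRABP1-led cluster counted as stromal; with the gland share taken off library 2, the stromal FOXO1 ratio was 1.03 and the PDK4 ratio 1.05. Lymphatic ANGPTL4 of library 2 was 214 CPM with doublets kept. Coefficients with FOXO1 moved as follows. With doublets kept, PDK4 had 0.89 in both libraries and ANGPTL4 -0.24 in library 2 (-0.235 before rounding). Over single clusters, PDK4 had 0.77 and ANGPTL4 -0.14 in library 2. With a pseudocount of 1 CPM, PDK4 had 0.49 and ANGPTL4 0.64 in library 1. Leaving out the epithelial-like class gave 0.43 for PDK4 and 0.28 for ANGPTL4 in library 2; leaving out the lymphatic class gave 0.55 for PDK4 and 0.53 for ANGPTL4 in library 1, and -0.21 for ANGPTL4 in library 2. The per-cell PDK4 value in epithelial-like cells was 0.17 at resolution 2.0, -0.038 unthinned, 0.066 without cluster 16, and 0.13, -0.27, 0.10 and -0.0050 in clusters 16, 17, 20 and 22; 20 random thinnings gave 0.17 to 0.45. The causes were not tested. Settings chosen after seeing the data were those on cluster 16, single clusters within a class, the CRABP1-led cluster, the classes left out, the gland share and the random thinnings. Depth limits the small classes of library 1: epithelial-like cells held 98 FOXO1 and 29 PDK4 UMIs, the plasma cell-like class 23 and 10, and the class of macrophages, monocytes or dendritic cells 20 and 3.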
